A study of Arabidopsis thaliana with 6 samples.

Results

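Transcripts of 2 root cap genes were followed across a dexamethasone time course in sorted lateral root cap cells of Arabidopsis thaliana. They were the polygalacturonase gene AT1G65570 and the serine carboxypeptidase-like gene scpl48 (locus AT3G45010). Each was found by its locus or symbol in the platform annotation and is read by 1 probe set, 264682_at for AT1G65570 and 252606_at for scpl48. They are 2 of the 22746 probe sets tested, 13513 of which carry a single gene in that annotation.

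The root cap is the sheath of short-lived cells that covers the growing root tip. Its outer cells loosen from their neighbours, and lateral root cap cells undergo programmed cell death, so the tissue is renewed as the root grows. Polygalacturonases cut the homogalacturonan backbone of pectin, the polymer that glues plant cells together, and AT1G65570 is known in Arabidopsis for a part in the release of root cap cells. Serine carboxypeptidases remove amino acids from the carboxyl end of proteins, and scpl48 is used in Arabidopsis as a transcript marker of cell death during development.

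All samples carried J2632-UAS::ARR1ΔDDK-GR in the C24 ecotype and came from seedlings grown for 5 days. In this construct the J2632 line drives a fusion of ARR1, a type-B response regulator of cytokinin signalling, to the glucocorticoid receptor, in the cells that it also marks by fluorescence. ARR1 is used here without its inhibitory receiver domain (ΔDDK), and dexamethasone lets the fusion enter the nucleus. The 3 groups were untreated seedlings (T0), seedlings after 1 h of dexamethasone (T1) and seedlings after 4 h of dexamethasone (T2), each with 2 biological replicates on 1 Affymetrix ATH1 array apiece. No group lacked the construct or was kept for the same hours without the steroid, so induced ARR1, dexamethasone and elapsed time cannot be told apart.

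The arrays were close to each other, with correlations of 0.953 to 0.972, and no pair held identical values. Background was taken as the 95th percentile of 27 bacterial control probe sets on each array. It was 43.2 and 47.1 intensity units on the 1 h arrays and 29.1 to 33.4 on the other 4. Of all probe sets 63.7% and 58.1% exceeded it at 1 h, and 65.2% to 67.8% on the other arrays. Before normalization the 1 h arrays also had the highest median log2 intensities, 6.42 and 6.35 against 6.21 to 6.32. Array 1 of the 1 h group had the highest hybridisation control (42615 for the cre spike, against 23819 to 32997 on the other arrays). It also had the highest 3' to 5' ratio of GAPDH, a measure of RNA quality, at 4.65 against 3.11 to 4.32.

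Both genes were expressed well above background in every group. On the deposited linear scale AT1G65570 lay 19.8 to 35.9 times above background over the 6 arrays, and scpl48 lay 71.3 to 132 times above it. Of 7 root cap markers in the list of cell types, these 2 were measured under this annotation, and the levels of SMB, BRN1, BRN2, FEZ and CEL5 were not analysed here. Of 20 marker genes for root hair, non-hair, cortex, endodermis, stele and quiescent centre cells, 6 were measured. EXPA7 (root hair), AT1G62500 (cortex) and AGL42 (quiescent centre) exceeded background on no array. AT4G28100 and GSO1 (endodermis) did so on 5 and 3 arrays, and EXPA18 (root hair) on 2. The summed intensity of these 6 markers was 159 and 184 in the untreated replicates, 136 and 190 at 1 h, and 157 and 201 at 4 h, so the groups overlapped. At most 2 of the 6 exceeded background on any 1 array, so this sum cannot show whether the mix of cells differed between groups. No marker of non-hair or stele cells was matched to a probe set under this annotation.

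AT1G65570, the polygalacturonase gene, had its highest signal at 1 h. Its intensity was 643 and 771 in the untreated replicates, 1550 and 1539 at 1 h, and 978 and 706 at 4 h. Both 1 h arrays stood above the other 4 arrays, while the untreated and 4 h arrays overlapped. AT1G65570 held the same position on the normalized log2 scale described below. On that scale 7.03% of all probe sets had both 1 h arrays above the other 4, and the share on the deposited scale was not counted. In these sorted cells a difference in RNA per cell cannot be told apart from a difference in the mix of cells collected.

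After log2 transformation of the intensity plus 16 and quantile normalization, AT1G65570 measured 9.47 ± 0.19 (SD, n = 2) untreated, 10.61 ± 0.02 at 1 h and 9.73 ± 0.33 at 4 h. The order of the group means was therefore 1 h, 4 h, untreated, and the last 2 did not differ beyond their spread. The 1 h level was 2.22-fold the untreated level, a log2 difference of 1.15 with a 95% confidence interval of 0.53 to 1.76. It did not pass after adjustment over all probe sets (limma adjusted p = 0.759). Quantile normalization had already given the arrays equal medians. With median centring in its place the difference was 0.96, and with the deposited scaling alone it was 1.12. As multiples of each array's background, AT1G65570 read 19.8 and 26.4 untreated, 35.9 and 32.7 at 1 h, and 29.3 and 22.1 at 4 h. Any part of the higher 1 h background in the 1 h difference was not tested. No probe set passed in that comparison (0% called), and 5.78% of probe sets had an unadjusted p under 0.05. The groups did not overlap and the 1 h group was higher, as for 15.5% of all probe sets.

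The size of the 1 h difference was uncommon among well-detected transcripts. Of 11643 probe sets above background on all 6 arrays, 15 (0.129%) had a log2 difference at 1 h at least as large as that of AT1G65570. The median difference over those probe sets was -0.005. These shares describe genes chosen with earlier results known, and they carry no test.

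At 4 h the polygalacturonase signal overlapped that of untreated cells. The log2 difference between 4 h and untreated was 0.27 (interval -0.35 to 0.88, limma adjusted p = 0.823). It depended on the array: 0.03 without 4 h replicate 1 and 0.50 without 4 h replicate 2. It was 0.13 without untreated replicate 1 and 0.17 when arrays were centred on their medians. Against 1 h the 4 h level was lower by 1.84-fold, with a log2 difference of -0.88 (interval -1.50 to -0.27, adjusted p = 0.414). Those groups did not overlap, as for the 22.1% of all probe sets that lay lower at 4 h than at 1 h in this way.

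**Figure D1:**
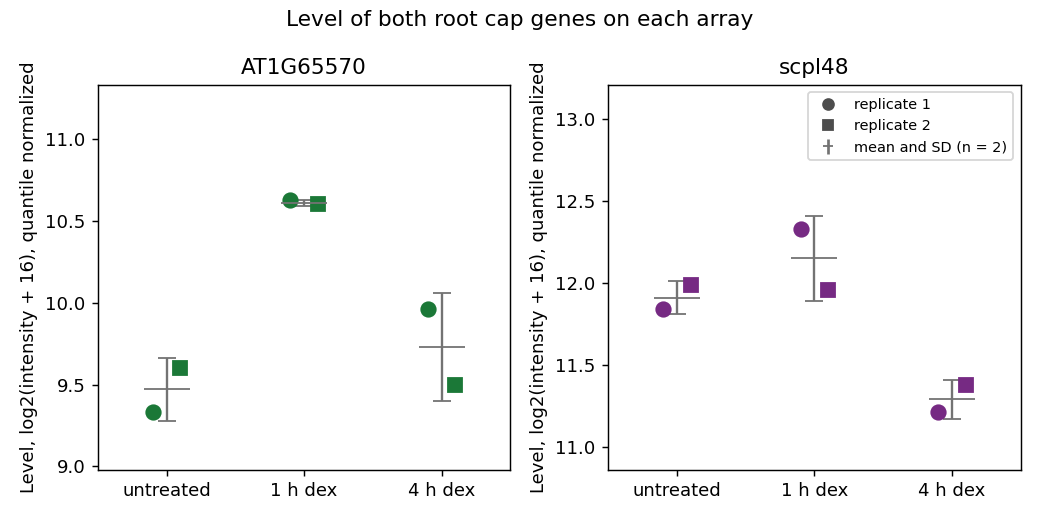
Level of AT1G65570 (left) and scpl48 (right) on each array, as log2 of the intensity plus 16 after quantile normalization, by group (untreated, 1 h and 4 h of dexamethasone). Circles and squares are replicates 1 and 2, and grey bars give the mean and SD (n = 2). The 1 h arrays of AT1G65570 (10.63 and 10.60) lie above its other 4, and the 4 h arrays of scpl48 (11.21 and 11.38) lie below its other 4.

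scpl48, the carboxypeptidase-like gene, had its lowest signal at 4 h. Its intensity was 3852 and 3841 in the untreated replicates, 5155 and 3932 at 1 h, and 2380 and 2689 at 4 h. Both 4 h arrays stood below the other 4, also on the normalized log2 scale. On that scale 10.9% of all probe sets held this position, and the share on the deposited scale was not counted. The highest value came from 1 h replicate 1, the array with the highest hybridisation control and GAPDH ratio, and their part in the result was not tested.

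On the normalized log2 scale scpl48 measured 11.91 ± 0.10 (SD, n = 2) untreated, 12.15 ± 0.26 at 1 h and 11.29 ± 0.12 at 4 h. Untreated and 1 h overlapped on this scale: the second untreated array read 11.99 and the second 1 h array 11.96. On the deposited scale, where the 1 h arrays had the highest medians and background, both 1 h arrays were above both untreated arrays. The share of all probe sets in this position on that scale was not counted. As multiples of each array's background, scpl48 read 119 and 83.4 at 1 h, and 119 and 132 untreated. The log2 difference at 1 h was 0.23 (interval -0.34 to 0.81, limma adjusted p = 0.945). It was 0.05 without 1 h replicate 1, 0.42 without 1 h replicate 2 and 0.07 with median centring.

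At 4 h the level of scpl48 was 1.54-fold below untreated, a log2 difference of -0.62 (interval -1.20 to -0.04). It missed the threshold after adjustment (limma adjusted p = 0.518), in a comparison where 1 probe set passed (0.0044% called). The groups did not overlap, as for the 20.6% of all probe sets that were lower at 4 h than untreated. Against 1 h the difference was -0.85, or 1.81-fold lower (interval -1.43 to -0.28, adjusted p = 0.41). In that comparison 5 probe sets passed (0.022% called). The difference of scpl48 between 4 h and 1 h was -0.66 without 1 h replicate 1 and -1.04 without 1 h replicate 2.

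The 2 genes had similar differences between 4 h and 1 h, -0.88 and -0.85. AT1G65570 was above its untreated level at 1 h with an interval that excluded 0, and this held in all 15 alternative settings. scpl48 was below its untreated level at 4 h with an interval that ended just short of 0, and it included 0 in 6 of 15 settings. Among these were the replicate block (-1.28 to 0.04) and leaving out untreated replicate 2 (-1.29 to 0.19) or 4 h replicate 1 (-1.38 to 0.30). These intervals are per probe set and are not adjusted for the number tested. Whether the differences of one gene differ from those of the other was not tested. The comparisons of 1 h and 4 h with untreated share the untreated arrays, and those of 4 h with 1 h share arrays with both.

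**Figure D2:**
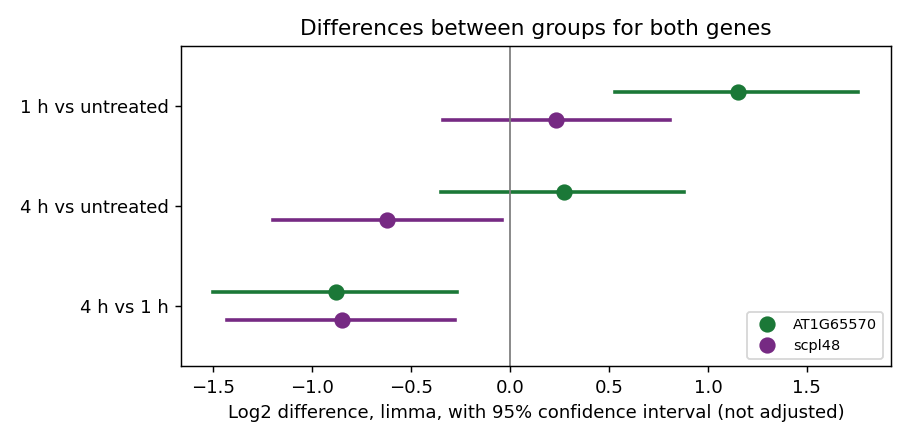
Log2 differences between groups for AT1G65570 (green) and scpl48 (purple), with unadjusted 95% confidence intervals from limma (lines). The interval of AT1G65570 at 1 h against untreated (0.53 to 1.76), that of scpl48 at 4 h against untreated (-1.20 to -0.04) and both intervals for 4 h against 1 h lie on 1 side of 0, while no difference passed after adjustment over all probe sets.

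Other genes of the same enzyme classes were read from lists. Of 17 polygalacturonase and inhibitor entries 5 were measured, and AT1G65570 was the only one of these above background on all 6 arrays. ADPG1, an abscission-zone polygalacturonase, and AT1G78400 were above it on no array. AT1G48100 exceeded background on 1 array, and AT5G14650 on 3. For AT5G14650 the log2 level was 5.16 and 5.75 untreated, 5.09 and 5.70 at 1 h, and 5.69 and 5.69 at 4 h. Of the 5 genes 0 passed in any comparison. With 4 of the 5 at or near background, no median over them is given.

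Pectin methylesterases, which remove methyl groups from pectin and so make it a better substrate for polygalacturonases, were represented by few genes. Of 28 entries on pectin enzymes 5 were measured. One of them, PMEAMT, is a phosphoethanolamine methyltransferase that entered through its symbol. ATPMEPCRB was the only methylesterase of these above background on all 6 arrays, with intensities of 2051 and 482 untreated, 861 and 814 at 1 h, and 542 and 479 at 4 h. Its spread in untreated cells was wide, and its log2 difference between 4 h and 1 h was -0.70 (SE 0.61, limma adjusted p = 0.767). PME61 and PMEPCRF exceeded background on 4 arrays each and AT4G02300 on 1. None of these entries passed in any comparison, and with 1 methylesterase detected throughout no direction is given for the class.

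The serine carboxypeptidase-like family was better covered, with 29 of 51 entries measured. Of these genes 12 were above background on all 6 arrays, 11 on 1 to 5 arrays and 6 on none. None passed in any comparison. At 1 h 17 of the 29 differences were above 0 (median 0.12), at 4 h 14 (median -0.08), and for 4 h against 1 h 13 (median -0.01). Over all probe sets the medians were -0.002, -0.009 and -0.003. Among the 12 genes detected on every array, 5 were above 0 at 1 h, 9 were below 0 at 4 h against untreated, and 6 were below 0 for 4 h against 1 h. Of the 11643 probe sets detected in this way, 49.1% were above 0 at 1 h and 52% were below 0 at 4 h. For 4 h against 1 h, 10 of 29 genes (34.5%) were lower without overlap, against 22.1% of all probe sets, and 7 (24.1%) were higher without overlap, against 21.8%. These shares include scpl48 itself and the genes that were not above background on every array. The members of the family therefore did not share one direction.

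Among the 12 carboxypeptidase genes detected on every array, scpl48 had the lowest difference between 4 h and 1 h. scpl18 followed at -0.78 (SE 0.26), with intensities of 71 and 89 untreated, 110 and 101 at 1 h, and 41 and 67 at 4 h. It had its highest arrays at 1 h and its lowest at 4 h, without overlap between any of the 3 groups. The same held on the normalized log2 scale. On that scale 15.5% of all probe sets were higher at 1 h than untreated without overlap. At 4 h, 20.6% were lower than untreated and 22.1% lower than at 1 h in this way. scpl18 lay close to background, which was 32.5 and 29.1 untreated, 43.2 and 47.1 at 1 h, and 33.4 and 31.9 at 4 h. Any part of the higher 1 h background in its course was not tested. scpl40 differed by -0.54 (SE 0.25), with intensities of 485 and 461 untreated, 519 and 612 at 1 h, and 448 and 332 at 4 h.

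In the other direction scpl20 stood farthest, with a difference of 0.73 (SE 0.25) between 4 h and 1 h. Its intensity was 1523 and 1073 untreated, 996 and 1051 at 1 h, and 1689 and 1778 at 4 h, so both 4 h arrays were the highest and both 1 h arrays the lowest. scpl20 held the same order on the normalized log2 scale. On that scale 21.8% of all probe sets were higher at 4 h than at 1 h without overlap. In this way 20% were higher at 4 h than untreated, and 15.7% were lower at 1 h than untreated. scpl28 differed by 0.31 (SE 0.25), and SCPL49, annotated as carboxypeptidase Y, by 0.19 (SE 0.21). The adjusted p of these 5 genes for 4 h against 1 h ran from 0.461 for scpl18 to 0.824 for SCPL49 (limma).

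**Figure D3:**
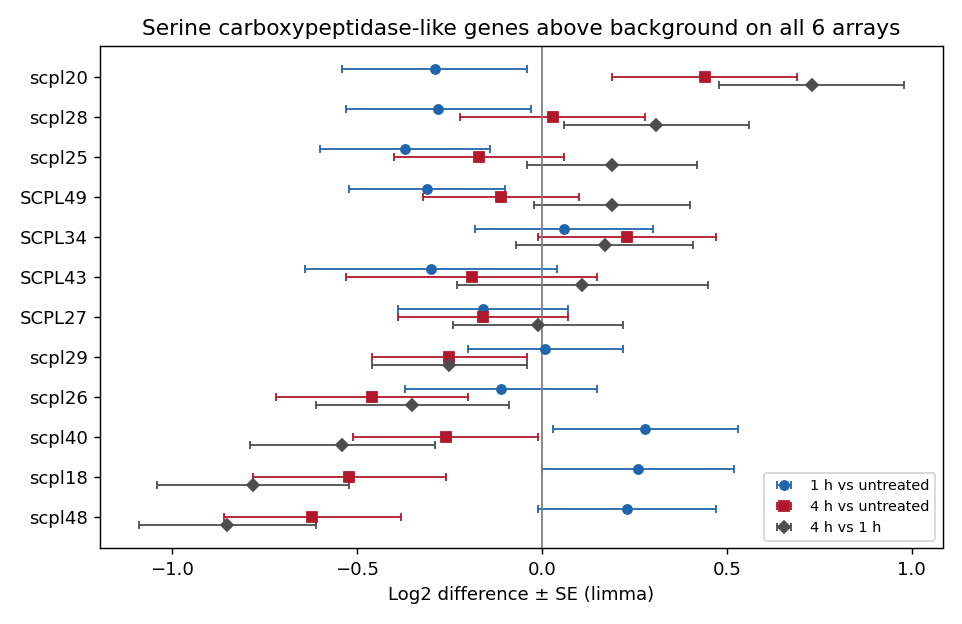
Log2 differences with their SE (limma) for the 12 serine carboxypeptidase-like genes above background on all 6 arrays, for 1 h against untreated (circles), 4 h against untreated (squares) and 4 h against 1 h (diamonds). The diamonds run from -0.85 for scpl48 to 0.73 for scpl20, with 6 genes below 0 and 6 above it.

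scpl48 was also read beside other genes listed for developmental cell death. Of 14 entries 4 were measured, all above background on every array. They were scpl48, AT4G04460, AT4G18425 and AT2G14095. AT4G04460 had intensities of 5545 and 3578 untreated, 5435 and 3912 at 1 h, and 3964 and 4110 at 4 h. AT4G18425 had 2718 and 1753, 2952 and 2048, and 2180 and 2413 in the same order, and AT2G14095 had 1655 and 810, 1466 and 945, and 1022 and 1149.

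In the untreated and 1 h groups these 3 genes were high on replicate 1 and low on replicate 2, and their 4 h values lay between. Their groups overlapped in every comparison, unlike those of scpl48 at 4 h. The log2 differences between 4 h and 1 h were -0.20 (SE 0.28) for AT4G04460, -0.13 (SE 0.31) for AT4G18425 and -0.14 (SE 0.40) for AT2G14095. All 4 genes of the list were thus below 0 in that comparison, but without 1 h replicate 1 only 1 of them was. Against untreated, 3 of 4 were below 0 at 4 h, and 1 of 4 without untreated replicate 1. At 1 h all 4 were above 0, whereas 3 of 4 were below 0 without untreated replicate 2 or without 1 h replicate 1. In limma 0 of the 4 passed in any comparison.

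Genes with the most similar course over the 6 arrays were sought among 2334 probe sets with a single annotated gene, signal above background on every array and an SD of at least 0.3. The measure was Pearson's r of the normalized log2 level over the 6 arrays, which share groups, and it is given as a description. For AT1G65570 the closest were AT2G34910 (r = 0.982), AT1G05700 (0.962), AT1G63100 (0.942), AT1G08590 (0.941) and Fes1A (0.933). AT1G08590 is annotated as PXL1, a receptor kinase related to PXY, and Fes1A is a partner of HSP70 chaperones. AT2G34910 measured 7.01 and 7.50 untreated, 8.56 and 8.93 at 1 h, and 7.87 and 7.15 at 4 h on the log2 scale, a difference of 1.50 at 1 h. The opposite course was shown by AT3G15770 (r = -0.962), AT5G26960 (-0.949) and AT4G29490 (-0.942).

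For scpl48 the closest were AT5G01610 (r = 0.997), AT3G48460 (0.992), AT4G29120 (0.979), AT3G44610 (0.977) and AT4G01410 (0.973). AT3G48460 measured 9.24 and 9.53 untreated, 9.78 and 9.49 at 1 h, and 8.48 and 8.70 at 4 h, so its 4 h arrays were the lowest, as for scpl48. The opposite course was shown by AT5G17010 (r = -0.988), the cytochrome P450 gene CYP71B5 (-0.985) and AT1G47530 (-0.976). AT5G17010 measured 6.52 and 6.26 untreated, 5.80 and 6.13 at 1 h, and 7.49 and 7.39 at 4 h. An r of at least 0.9 was reached by 36 probe sets with scpl48 and by 13 with AT1G65570. Between AT1G65570 and scpl48 themselves r was 0.47, while the median r over the 2334 probe sets was 0.04 for each gene. There were 379 probe sets closer to AT1G65570 than scpl48 was, and 601 closer to scpl48 than AT1G65570 was. An r of at least that between the pair was reached by 16.3% of probe sets with AT1G65570 and 25.8% with scpl48.

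**Figure D4:**
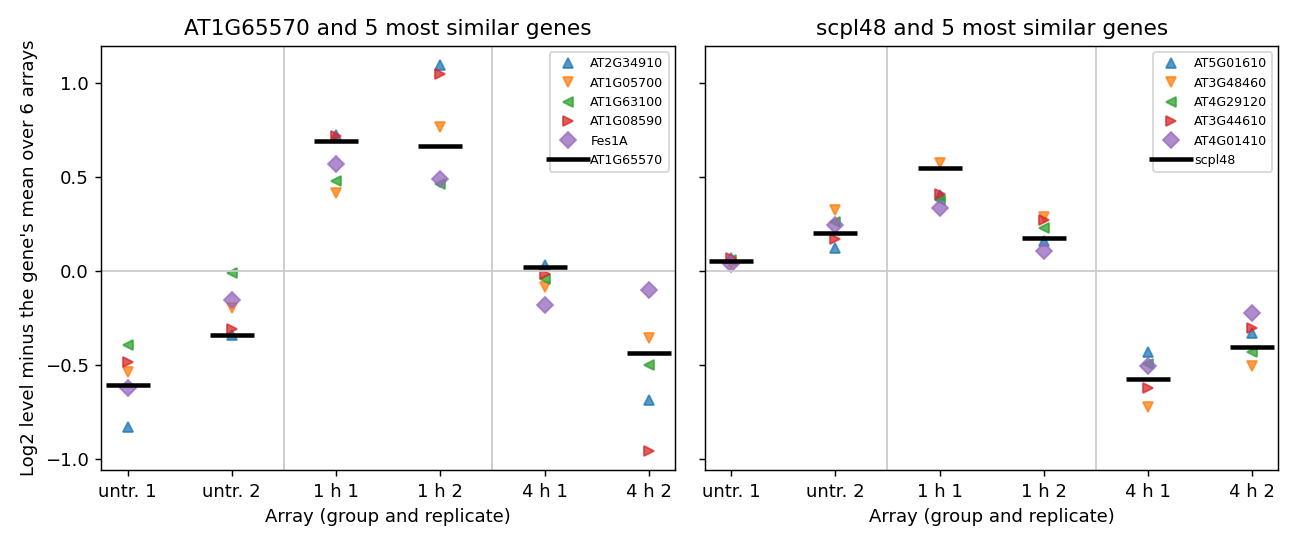
Log2 level of AT1G65570 (left) and scpl48 (right), each with the 5 genes of highest Pearson's r, on the 6 arrays after subtracting the gene's own mean; black bars mark the gene itself and symbols the others. On the left both 1 h arrays are highest, and on the right both 4 h arrays are lowest; the genes were chosen for this likeness.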

How the data were processed

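RNA of fluorescence-sorted J2632 cells was labelled with biotin in a two-cycle protocol, per the labels' protocols. The values deposited by the authors are linear intensities, with 1 value for a probe set on each array; the summarising software is not given in the sources used here. Every column had a trimmed mean of 250.03 (2% cut at each end). Of 22810 rows, 64 control probe sets were left out. Values were transformed as log2(intensity + 16). Column medians then spanned 0.215, over the limit of 0.1, and columns were quantile normalized. limma 3.58.1 (R 4.3.3) fitted 1 mean to each group over the 6 arrays together, with Benjamini-Hochberg adjustment over 22746 probe sets and a threshold of 0.05, two-sided. The fit was tested on simulated data. The number of arrays limits the precision, and nothing in the labels beyond "biological replicate" says how replicates were separated.

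Gene names come from the annotation of the platform (2016), updated by RefSeq (TAIR10.1); 13513 probe sets have 1 gene, 503 several and 8730 none listed, and the last 2 kinds were left unnamed. The members, gene lists and tests were chosen with earlier results of these data known. Named were both members in every array and comparison; the measured entries of each list above background on at least 1 array, or, for over 10 such entries, the 3 largest differences per direction for 4 h against 1 h among those above background on all 6 arrays; and the 5 most and 3 least similar genes. Entries above background on no array were named in addition. Alternatives covered the pseudocount, normalization, filter, prior variance, replicate block, array weights, arrays in the fit and leaving out each array.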

Additional observations from a re-analysis of the deposited data

How the results depend on the processing

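Each of the 6 differences of AT1G65570 and scpl48 kept its direction in all 15 alternatives and passed the threshold in 0 of them. The direction was free to change in only some of these. The background filter, prior variance, replicate block and array weights, which were equal within a group, could change only the interval and adjusted p. Leaving out arrays of the group outside a comparison could change a difference only through the normalization. Leaving out 1 array at a time gave, for AT1G65570, 1.02 to 1.28 at 1 h, 0.03 to 0.50 at 4 h and -1.11 to -0.65 for 4 h against 1 h. For scpl48 it gave 0.05 to 0.42, -0.71 to -0.54 and -1.04 to -0.66. The lowest adjusted p over all alternatives was 0.153, for scpl48 between 4 h and 1 h with a pseudocount of 64. Unadjusted 95% intervals included 0 in 6 of the 15 settings for scpl48 at 4 h, and for 4 h against 1 h in 2 for scpl48 and 1 for AT1G65570. Every group held 1 array of each replicate number, so the replicate block left the 6 differences unchanged by design. With the block there was no call among them. Deviations of same-numbered replicates correlated at 0.12, -0.02 and -0.04 between groups over all probe sets. With 1 deviation per group, these values cannot decide whether arrays of the same number were handled together, which the labels do not state.

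The count of probe sets called depended on the setting, and the cause was not tested. At 1 h it was 0 in every setting. At 4 h against untreated (1 in the reported fit) it was 0 with a pseudocount of 1, with the replicate block or with only the 4 arrays compared, 8 with the filter on background, 108 with a pseudocount of 64 and 123 with a prior variance following the level. For 4 h against 1 h (5) it was 0 with a pseudocount of 1 or only the arrays compared, 8 with array weights, 17 with the filter, 42 with a pseudocount of 64 and 53 with that prior variance. Leaving out any 1 array gave 0 in both. Without single arrays, an alternative chosen after seeing the data, 11 to 19 of 29 carboxypeptidase genes were below 0 at 4 h.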
